A study of Mus musculus with 12 samples.

Results

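The 10 genes described here, Ptgs1, Ptgs2, Ptges, Ptgds, Hpgds, Ptgis, Alox5, Alox5ap, Ltc4s and Pla2g7, encode enzymes and a helper protein that make prostaglandins, prostacyclin and leukotrienes or break down platelet-activating factor. They were chosen by gene symbol, and all 10 were found among the 22870 genes of the deposited table. The transcripts of Ptgis were found by their Ensembl transcript identifiers. The RNA came from whole epididymal white adipose tissue (eWAT) of male C57BL/6J mice, housed singly and 21 weeks old, from 4 diet groups. The ND mice ate a normal diet for 16 weeks, and the HFD mice ate a high-fat diet for the same time. The CLE mice ate the high-fat diet with 1.5% chrysanthemum leaf ethanol extract, and the LU mice ate it with 0.003% luteolin, a plant flavonoid. Each group is 3 mice, described by the authors as representative of their group, and each mouse gave 1 library.

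Prostanoids and leukotrienes are short-lived lipid signals made from arachidonic acid, which phospholipases A2 release from membranes. The cyclooxygenases turn it into prostaglandin H2, and separate synthases then make prostaglandin E2, prostaglandin D2, prostacyclin or thromboxane. On the other branch, 5-lipoxygenase and its activating protein FLAP make leukotriene A4, which becomes leukotriene B4 or, through leukotriene C4 synthase, the cysteinyl leukotrienes. In adipose tissue, prostaglandin E2 is known to restrain lipolysis in adipocytes, and the leukotriene branch is best known from leukocytes.

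The authors deposited FPKM, which are fragments scaled by transcript length and by the mapped fragments of the library, so that levels can be set beside each other between genes. A gene was tested where 3 or more libraries had an FPKM of 1 or more, which left 12769 genes and 8 of the 10 genes described here. Ptgs2 and Ptgds did not pass this filter. Values of log2(FPKM + 1) were compared by limma in a single fit of the 12 libraries. Called means that the p-value, adjusted over all genes tested by Benjamini and Hochberg's method, was under 0.05 and that the fold change was over 1.5. Differences are given as log2 fold changes of FPKM + 1, a scale that makes the changes of low genes look smaller than they are. The depth behind each value is unknown, since no read counts were recovered. The titles of 4 libraries carry the letter R (those of CLE mouse 4, LU mouse 2, ND mouse 3 and ND mouse 4), and the column headers of the same 4 hold a number that reads as a date. No HFD library carries the letter, so that a batch it may mark could not be examined within the HFD group. The tissue expressed the defining adipocyte gene Adipoq at a mean of 2136 FPKM in ND and 1186 FPKM in HFD.

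**Figure D1:**
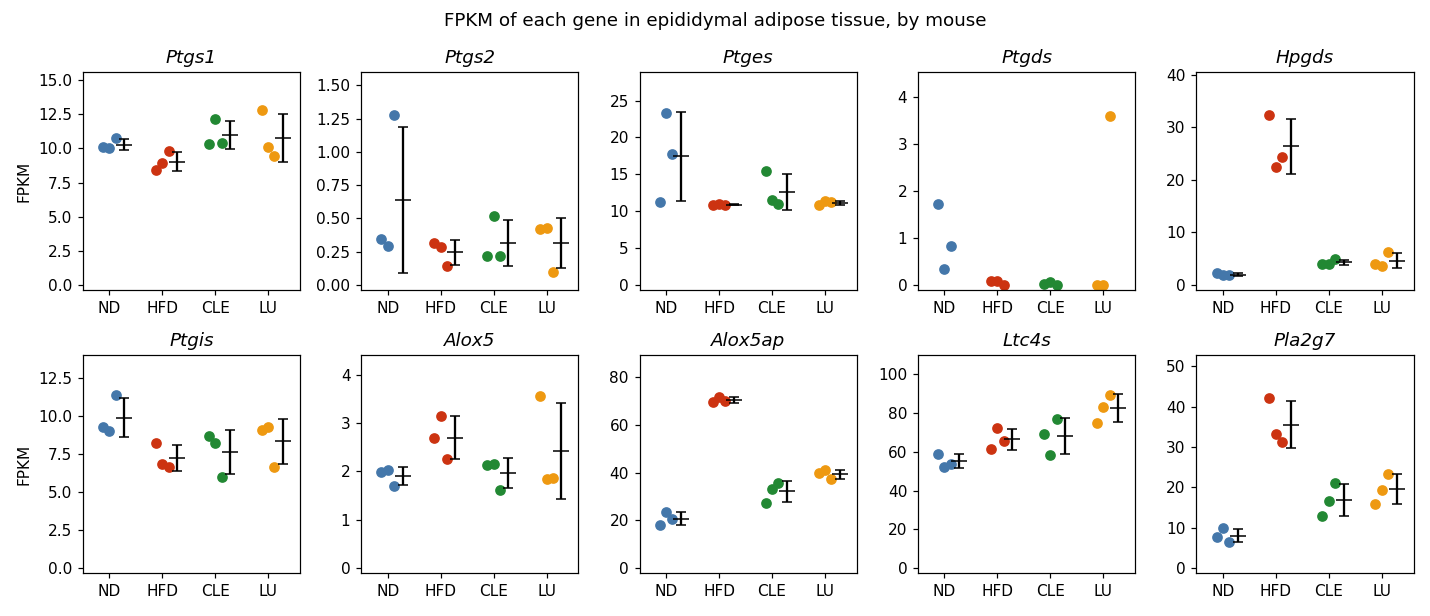
FPKM of the 10 genes in eWAT, with a panel per gene and a point per mouse; the bar and whiskers show the mean and SD of 3 mice, left out for Ptgds, which is listed at 0 in 4 libraries. Hpgds, Alox5ap and Pla2g7 stood highest in all 3 HFD mice, and Ltc4s stood above the ND and HFD mice in all 3 LU mice.

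The 10 genes differed widely in level. In the ND group Ltc4s had the highest mean FPKM (55.1 ± 3.56, SD, n = 3), followed by Alox5ap (20.6 ± 2.75) and Ptges (17.4 ± 6.01). Ptgs1 (10.3 ± 0.394) and Ptgis (9.90 ± 1.30) came next. Ptges overlapped with Alox5ap above it and with Ptgis below it, and Ptgs1 lay within the range of Ptgis. Pla2g7 followed at 8.07 ± 1.64 FPKM, and its highest mouse overlapped with Ptgis. Hpgds (1.96 ± 0.214 FPKM) and Alox5 (1.90 ± 0.184 FPKM) overlapped in their levels. In the HFD group the order was different, with Alox5ap (70.4 ± 1.08 FPKM) and Ltc4s (66.6 ± 5.39 FPKM) first, followed by Pla2g7 (35.5 ± 5.87 FPKM) and Hpgds (26.3 ± 5.20 FPKM). Alox5ap and Ltc4s overlapped, as did Pla2g7 and Hpgds. In CLE and LU the order was Ltc4s, Alox5ap, Pla2g7, Ptges, Ptgs1, Ptgis, Hpgds and Alox5, with Ptgs2 and Ptgds last.

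Between HFD and ND, 3 of the 8 genes tested were called, all 3 higher in HFD, namely Hpgds, Alox5ap and Pla2g7. Of all genes tested, 14.8% were called higher and 10.8% lower in this comparison. For each of the 8, every HFD mouse lay on the same side of every ND mouse, with 5 genes higher and 3 lower in HFD. The same held for 59.5% of all genes tested. The median log2 fold change of the 8 was 0.31, and that of all genes tested was -0.02. In CLE against HFD the same 3 genes were called, all lower in CLE, where 10.1% of all genes were called lower and 6.34% higher. They were also called lower in LU against HFD, where 7.64% of all genes were called lower and 4.81% higher. The median log2 fold change of the 8 was -0.14 in CLE against HFD (all genes 0.01) and -0.06 in LU against HFD (all genes 0.03). Both of these comparisons and the one with ND share the 3 HFD mice, so they are not independent of each other.

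**Figure D2:**
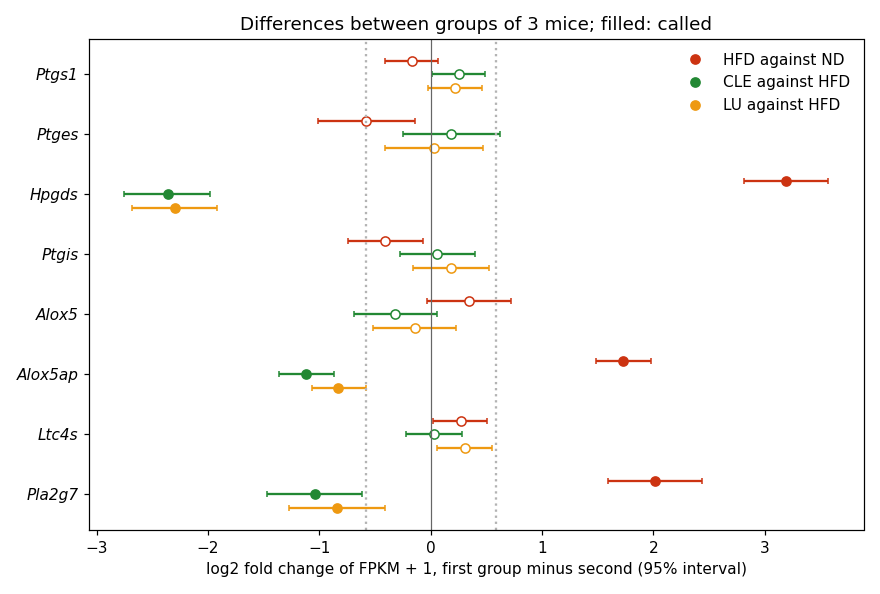
Log2 fold changes of FPKM + 1 with 95% intervals from limma for the 8 genes tested, in HFD against ND, CLE against HFD and LU against HFD. Filled points were called, and the dotted lines mark a fold change of 1.5. Hpgds, Alox5ap and Pla2g7 lie to the right of the lines for HFD and to the left for CLE and LU.

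The cyclooxygenases come first in prostanoid synthesis. Ptgs1 (ENSMUSG00000047250, chromosome 2, 36230426 to 36252272, plus strand, GRCm38) encodes COX-1, the form that many tissues make constitutively. Its FPKM was 10.1, 10.03 and 10.7 in ND, 8.42, 8.90 and 9.78 in HFD, 10.3, 12.1 and 10.4 in CLE, and 12.8, 10.1 and 9.44 in LU. The HFD mice were the lowest group, below every ND and every CLE mouse but overlapping with LU. No difference was called: the log2 fold change was -0.17 in HFD against ND (95% interval -0.41 to 0.07, adjusted p = 0.218) and 0.25 in CLE against HFD (interval 0.01 to 0.49, adjusted p = 0.1013).

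Ptgs2 (ENSMUSG00000032487, chromosome 1, 150100031 to 150108227, plus strand) encodes COX-2, the inducible cyclooxygenase of inflammation. It stood under 1 FPKM in every library but ND mouse 4. Its FPKM was 0.347, 0.296 and 1.28 in ND, 0.314, 0.283 and 0.139 in HFD, 0.217, 0.517 and 0.214 in CLE, and 0.419, 0.430 and 0.0945 in LU. All groups overlapped, and ND mouse 4 stood above all other mice. Without the filter, its log2 fold change in HFD against ND was -0.35 (SE 0.21, adjusted p = 0.2403), and it was called in none of the 6 comparisons. Ptgs1 exceeded Ptgs2 in FPKM in every one of the 12 libraries.

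Ptges, Hpgds and Ptgis were the chosen genes for synthases that use prostaglandin H2 and that could be tested. Of these, Hpgds was the only one called in HFD against ND. Ptges (ENSMUSG00000050737, chromosome 2, 30889471 to 30929863, minus strand) encodes microsomal prostaglandin E synthase, the terminal enzyme of prostaglandin E2. Its FPKM was 11.3, 23.3 and 17.7 in ND, 10.9, 10.9 and 10.8 in HFD, 15.4, 11.5 and 10.96 in CLE, and 10.8, 11.3 and 11.2 in LU. The HFD and LU mice lay close together, and ND mice 3 and 4, both libraries with the letter R, were the highest. The log2 fold change in HFD against ND was -0.58 (SE 0.20, interval -1.01 to -0.14) with an adjusted p of 0.03055, and the fold change of 1.5 was not reached, so Ptges was not called. It was called with a pseudocount of 0.1 (-0.61), with weights per library (-0.64), with quantile normalization of the libraries (-0.65) and by the adjusted p alone. With the letter R as a covariate the log2 fold change was -0.45 (adjusted p = 0.1355). Without the 4 libraries with the letter it was -0.05, with ND mouse 2 as the only ND library and its spread taken from the other groups. Without ND mouse 2 it was -0.84 (adjusted p = 0.0009271), which was called. The part of the letter in this difference was not tested beyond these values. In CLE against HFD its log2 fold change was 0.18 (interval -0.25 to 0.62), and in LU against HFD it was 0.03 (interval -0.41 to 0.47).

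Hpgds (ENSMUSG00000029919, chromosome 6, 65117293 to 65144908, minus strand) encodes the hematopoietic prostaglandin D synthase, an enzyme known from mast cells, macrophages and other leukocytes. Its FPKM was 2.2, 1.90 and 1.79 in ND, 32.2, 22.5 and 24.3 in HFD, 3.99, 3.98 and 4.83 in CLE, and 4.05, 3.49 and 6.27 in LU. The HFD mice stood far above all others, the ND mice were lowest, and the CLE and LU mice overlapped with each other between them. Its log2 fold change was 3.19 in HFD against ND (SE 0.17, interval 2.81 to 3.57, adjusted p = 5.732e-07), a 9.14-fold difference and the largest among the 8 genes. It was -2.36 in CLE against HFD (interval -2.75 to -1.98, adjusted p = 1.949e-05) and -2.30 in LU against HFD (interval -2.68 to -1.92, adjusted p = 0.0001011). These 3 calls held in every alternative that was run. In bulk tissue, a difference in the number of cells of a type and a difference in RNA per cell cannot be told apart.

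Ptgds (ENSMUSG00000015090, chromosome 2, 25466709 to 25470046, minus strand) encodes the other, lipocalin-type prostaglandin D synthase, which male reproductive tissues are known to make. It was listed at 1.73, 0.343 and 0.839 FPKM in ND, 0.0756, 0.0921 and 0 in HFD, 0.0257, 0.0574 and 0 in CLE, and 0, 0 and 3.61 in LU. The ND mice stood above every HFD and CLE mouse, and LU mouse 8 was the highest of all. An exact 0 in this table can be a failed estimate, so that no mean or fold change is given. Markers of the epididymis, which lies against this fat pad, had a summed FPKM of 1.51, 0.388 and 5.53 in ND, from 0.0487 to 0.364 in HFD, from 0 to 0.332 in CLE, and 0.0508, 2.17 and 3.31 in LU. LU mouse 8 was the highest LU mouse for both, while LU mouse 3 had 2.17 FPKM of markers and Ptgds at 0. Of the 8 markers only Crisp1 passed the filter (5.13 FPKM in ND mouse 4), and Adam7 held 2.08 FPKM in LU mouse 8. The part of epididymal RNA in Ptgds was not tested.

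Set against each other within a library, Hpgds FPKM divided by Ptges FPKM was 0.195, 0.0815 and 0.101 in ND and 2.97, 2.05 and 2.24 in HFD. Hpgds was therefore the lower of the pair in every ND mouse and the higher in every HFD mouse. The ratio was 0.259, 0.346 and 0.441 in CLE and 0.373, 0.308 and 0.559 in LU, below 1 in all 6.

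Ptgis (ENSMUSG00000017969, chromosome 2, 167191805 to 167240604, minus strand) encodes prostacyclin synthase, an enzyme of vessel walls. Its FPKM was 9.27, 9.04 and 11.4 in ND, 8.20, 6.82 and 6.63 in HFD, 8.68, 8.20 and 5.99 in CLE, and 9.09, 9.30 and 6.65 in LU. The HFD mice were below the ND mice and overlapped with CLE and LU. In HFD against ND the log2 fold change was -0.41 (SE 0.15, adjusted p = 0.04534), with a fold change under 1.5 and no call. Without the transcripts that the assembly had altered from the annotation, which hold 49.6% of the FPKM of Ptgis, this value was -0.08 (adjusted p = 0.812). Endothelial markers had a summed FPKM from 303.3 to 476.3 in ND and from 212.6 to 346.8 in HFD, and smooth muscle markers from 122 to 249.2 and from 119.8 to 154.1, and their part in the Ptgis value was not tested.

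On the leukotriene branch, Alox5 (ENSMUSG00000025701, chromosome 6, 116410077 to 116461178, minus strand) encodes 5-lipoxygenase itself. Its FPKM was 1.98, 2.04 and 1.69 in ND, 2.69, 3.15 and 2.26 in HFD, 2.13, 2.15 and 1.61 in CLE, and 3.56, 1.84 and 1.86 in LU. The HFD mice lay above the ND and CLE mice, and LU mouse 2 was the highest of all. The log2 fold change was 0.34 in HFD against ND (SE 0.17, interval -0.03 to 0.72, adjusted p = 0.1146), -0.32 in CLE against HFD (adjusted p = 0.1748) and -0.14 in LU against HFD (adjusted p = 0.5668), none of them called.

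Alox5ap (ENSMUSG00000060063, chromosome 5, 149264767 to 149288153, plus strand) encodes FLAP, the membrane protein that presents arachidonic acid to 5-lipoxygenase. Its FPKM was 17.9, 23.4 and 20.6 in ND, 69.6, 71.6 and 70.0 in HFD, 27.4, 33.3 and 35.7 in CLE, and 39.9, 40.9 and 37.1 in LU. The 4 groups did not overlap, with ND lowest, then CLE, LU and HFD. The log2 fold change was 1.73 in HFD against ND (SE 0.11, interval 1.48 to 1.98, adjusted p = 7.829e-07), -1.12 in CLE against HFD (interval -1.36 to -0.87, adjusted p = 4.495e-05) and -0.83 in LU against HFD (interval -1.07 to -0.58, adjusted p = 0.0004926). Alox5ap FPKM divided by Alox5 FPKM was between 9.02 and 12.2 in the ND mice and between 22.8 and 31.0 in the HFD mice, so the helper protein's transcript and that of the enzyme did not keep 1 ratio.

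Nearly all of the Alox5ap FPKM, 99.9%, stood on 2 assembled transcripts that differ from the annotated one. The first of them had 7.57, 12.8 and 4.83 FPKM in ND, 30.9, 28.3 and 24.8 in HFD, 21.5, 29.6 and 17.3 in CLE, and 21.8, 19.7 and 21.9 in LU. The second had 10.3, 10.6 and 15.2 in ND, 38.7, 43.3 and 45.2 in HFD, 5.88, 3.68 and 18.4 in CLE, and 18.1, 21.2 and 15.3 in LU. Both forms were higher in every HFD mouse than in every ND mouse. The first form overlapped between HFD and CLE, and the second did not, so the share of the forms varied among the CLE mice while their sum did not overlap with HFD. When the gene was represented by its highest transcript alone, the log2 fold change of Alox5ap was -2.34 in CLE against HFD, and -1.19 in LU against HFD, no longer called (adjusted p = 0.05831).

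**Figure D3:**
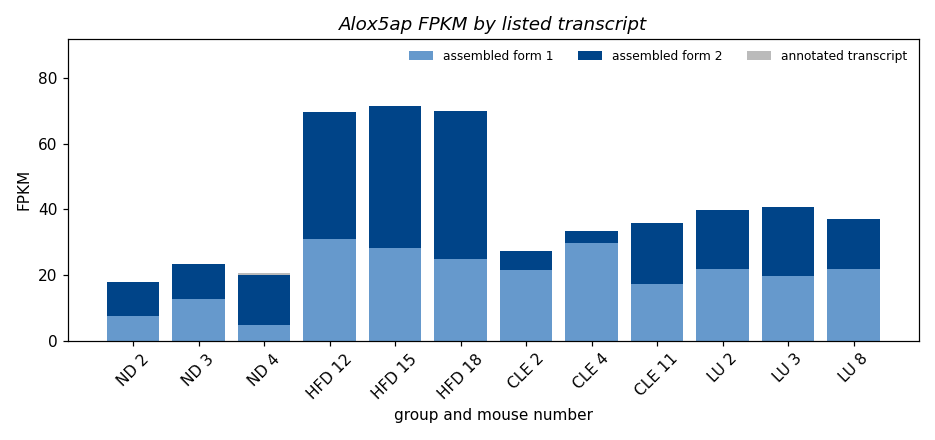
Alox5ap FPKM in each of the 12 libraries, stacked by listed transcript: 2 assembled forms and the annotated transcript, which is near 0 throughout. The whole bars reach 69.6 to 71.6 FPKM in HFD and stay between 17.9 and 40.9 in the other groups, and the second form is smallest in CLE mice 2 and 4.

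Ltc4s (ENSMUSG00000020377, chromosome 11, 50236461 to 50238616, minus strand) encodes leukotriene C4 synthase, which joins leukotriene A4 to glutathione. Its FPKM was 59.1, 52.3 and 53.9 in ND, 61.6, 72.3 and 65.8 in HFD, 69.0, 58.4 and 77.1 in CLE, and 75.2, 83.0 and 89.5 in LU. The ND mice were below the HFD and LU mice, and the LU mice were above all ND and HFD mice. The log2 fold change was 0.27 in HFD against ND (interval 0.02 to 0.51, adjusted p = 0.06849), 0.03 in CLE against HFD (adjusted p = 0.875) and 0.31 in LU against HFD (interval 0.06 to 0.55, adjusted p = 0.06479), none called. In LU against ND it was 0.57 (interval 0.33 to 0.82, adjusted p = 0.008213), a fold change of 1.488, which is just under the limit of 1.5. Ltc4s FPKM divided by Alox5ap FPKM was between 2.24 and 3.30 in ND, between 0.885 and 1.01 in HFD, between 1.76 and 2.52 in CLE, and between 1.88 and 2.41 in LU.

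Pla2g7 (ENSMUSG00000023913, chromosome 17, 43568098 to 43612201, plus strand) encodes the secreted platelet-activating factor acetylhydrolase, also called lipoprotein-associated phospholipase A2, which inactivates platelet-activating factor. Its FPKM was 7.81, 9.83 and 6.58 in ND, 42.2, 33.2 and 31.2 in HFD, 12.97, 16.6 and 21.0 in CLE, and 15.8, 19.5 and 23.2 in LU. The HFD mice stood above all others and the ND mice below all others, and CLE and LU overlapped. Its log2 fold change was 2.01 in HFD against ND (SE 0.20, interval 1.59 to 2.44, adjusted p = 9.497e-06), -1.04 in CLE against HFD (interval -1.47 to -0.62, adjusted p = 0.001863) and -0.84 in LU against HFD (interval -1.27 to -0.41, adjusted p = 0.00907). Without the 4 libraries with the letter R the last was -0.70 and no longer called (adjusted p = 0.05724).

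Between CLE and LU, none of the 8 genes was called by limma, where 0.00783% of all genes tested were called, and 2 of the 8 had an unadjusted p under 0.05. These 2 were Alox5ap, at a log2 fold change of -0.29 (interval -0.54 to -0.04), and Ltc4s, at -0.28 (interval -0.53 to -0.03), both with an adjusted p of 0.8903. Every CLE mouse was below every LU mouse for Alox5ap, and the groups overlapped for the other 7. Groups without overlap were found for 12.5% of the 8 genes and for 9.03% of all genes tested, which is near. An unadjusted p under 0.05 was found for 672 of the 12769 genes, a smaller share than 2 of the 8. For Hpgds the interval of the difference was -0.44 to 0.32, and for Pla2g7 it was -0.63 to 0.22, so differences of that size cannot be told from 0 with 3 mice per group. The intervals were -0.21 to 0.27 for Ptgs1, -0.28 to 0.59 for Ptges, -0.46 to 0.22 for Ptgis and -0.55 to 0.20 for Alox5.

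The genes that were lower in CLE and LU than in HFD were also compared with ND. In CLE against ND, Hpgds (log2 fold change 0.83, adjusted p = 0.02417), Alox5ap (0.61, adjusted p = 0.01599) and Pla2g7 (0.97, adjusted p = 0.02092) were called, where 2.07% of all genes were called higher and 0.854% lower. None of the 3 was called when only the CLE and ND libraries entered the fit, without CLE mouse 11, without ND mouse 2 or without the 4 libraries with the letter R, which leaves ND with mouse 2 alone. Their log2 fold changes were between 0.52 and 0.99 in these fits. Of all 12769 genes, 373 were called in CLE against ND, 0 with only the CLE and ND libraries, 142 without CLE mouse 11, 124 without ND mouse 2 and 183 without the letter R, so the calls fell among all genes as well. With the highest transcript alone, Alox5ap turned to -0.59. In LU against ND the same 3 were called, Hpgds at 0.89 (adjusted p = 0.00793), Alox5ap at 0.90 (adjusted p = 0.001294) and Pla2g7 at 1.18 (adjusted p = 0.0037), where 4.97% of all genes were called higher and 1.62% lower. Without ND mouse 2, the calls in LU against ND were 5, of which 4 were higher and 1 lower. Of all 12769 genes, 661 were called in that fit, against 841. The calls so added in LU against ND were Ltc4s (0.62, adjusted p = 0.01793) and Ptges (-0.81, adjusted p = 0.01113). Hpgds lost its call there without class code j, the assembled transcripts with altered splicing (0.61, adjusted p = 0.1904), with the highest transcript alone (0.59, adjusted p = 0.2957) and without the libraries with the letter R (0.84, adjusted p = 0.1461), and Alox5ap lost it with the highest transcript alone (0.56, adjusted p = 0.4324).

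Macrophage markers moved with these genes. The summed FPKM of 10 markers (Adgre1, Cd68, Csf1r, Itgam, Lyz2, Cd14, Mertk, Fcgr1, Mrc1 and Itgax) was 345.1 to 510.9 in ND, 2313 to 2669 in HFD, 586.4 to 872.1 in CLE and 921.3 to 1056 in LU. Of the 10, 9 were called higher in HFD than in ND, with a median log2 fold change of 2.52 over all 10, and 9 were called lower in CLE and in LU than in HFD, with medians of -1.80 and -1.44. Per 1000 FPKM of these markers, Hpgds had 6.37, 3.71 and 5.04 FPKM in ND, 12.1, 9.18 and 10.5 in HFD, between 5.54 and 6.80 in CLE, and between 3.79 and 5.94 in LU. On the same scale Alox5ap had between 45.8 and 58.1 FPKM in ND and between 26.1 and 30.2 in HFD, and Pla2g7 between 18.6 and 22.6 in ND and between 13.5 and 15.8 in HFD. This sum is mostly Lyz2, which made up between 65.1% and 75.3% of it in every library. Divided by the sum without Lyz2, Hpgds was again higher, at 0.01497 to 0.01857 in ND and 0.03009 to 0.03656 in HFD. Alox5ap was again lower, at 0.1511 to 0.2096 in ND and 0.07895 to 0.09714 in HFD. Pla2g7 was also again lower, at 0.0659 to 0.07762 in ND and 0.03861 to 0.04786 in HFD. The ratios depend on the marker. Against single markers, the Hpgds ratio was higher in every HFD mouse than in every ND mouse for 6 of the 10 (Csf1r and Mrc1 among them), lower for 2 (Cd68 and Itgax) and overlapped for 2 (Adgre1 and Itgam). The Alox5ap ratio was lower in every HFD mouse for 7 markers, higher for Cd14 and Mertk, and overlapped for Mrc1. That of Pla2g7 was lower for 7 and higher for 3, namely Cd14, Mertk and Mrc1. No direction relative to macrophage RNA can be read from these ratios. The part of macrophages in the differences of the 3 genes was not tested.

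**Figure D4:**
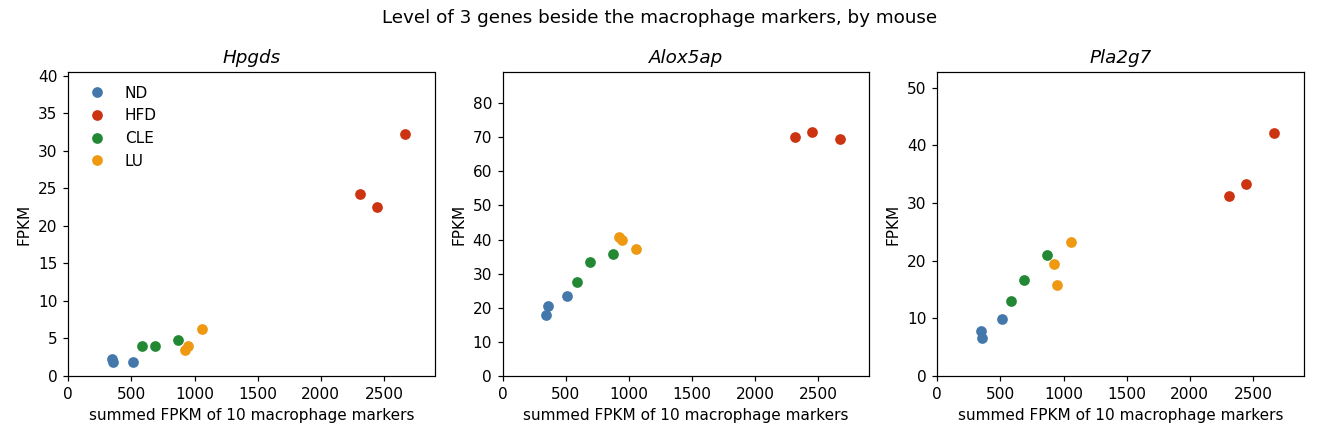
FPKM of Hpgds, Alox5ap and Pla2g7 (vertical axes) against the summed FPKM of 10 macrophage markers (horizontal axes), with a point per mouse coloured by group. The HFD mice stand apart at the upper right, at marker sums from 2313 to 2669, and the points of the other groups lie between 345.1 and 1056.

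Mast cells, which also make prostaglandin D2 and leukotriene C4, were represented by 9 markers at a summed FPKM of 11.6 to 18.6 in ND, 15.4 to 22.9 in HFD, 9.24 to 11.6 in CLE and 7.75 to 13.9 in LU. Of the 6 tested, 4 were called higher and 1 lower in HFD against ND, and 4 were called lower in CLE and in LU against HFD. Among the 4 that were higher, Mcpt4 went from a mean of 1.34 to 3.87 FPKM and Cpa3 from 0.510 to 2.06. Cpa3 would not have passed the filter without the HFD mice. The one that was lower was Kit, at 7.01 and 3.32 FPKM. The receptor subunit genes Ms4a2 and Fcer1a had means under 1 FPKM in both groups. The neutrophil list had sums of 7.11 to 15.9 FPKM in ND, 73.9 to 123.2 in HFD, 14.5 to 28.5 in CLE and 23.1 to 55.5 in LU. Of its 8 genes 3 were tested in HFD against ND. S100a8 (means of 10.2 and 100.9 FPKM in ND and HFD) and Csf3r (0.964 and 3.896) were called higher. S100a9 (1.42 and 0.381) was called lower, and it would not have passed the filter without the ND mice. Ly6g and Ngp were listed at 0 in every ND and HFD library, where a 0 can be a failed estimate. The summed adipocyte markers went the other way, at 32610 to 34990 FPKM in ND and 16810 to 18910 in HFD. The sums were 25920 to 28670 in CLE and 24450 to 29680 in LU. Fabp4 had the largest part of them, with means of 19730 FPKM in ND and 11000 in HFD. Of the 8 markers, 7 were called lower in HFD than in ND, and Lep was called higher. The means of Lep were 247.9 FPKM in ND, 1245 in HFD, 593.3 in CLE and 572.1 in LU. Mesothelial markers had sums of 10.01, 23.7 and 62.3 FPKM in ND and 2.32 to 7.36 in HFD. How far any of these cell types bears on the 10 genes was not tested.

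The genes around these in the pathway were taken as a list of 64, of which 63 were in the table and 45 were tested. In HFD against ND, 15 of the 45 were called higher, 7 lower and 23 neither, with a median log2 fold change of 0.19. In CLE against HFD, 2 were called higher and 11 lower (median -0.11), and in LU against HFD 2 higher and 6 lower (median -0.03). Of all genes tested, 14.8% were called higher and 10.8% lower in HFD against ND. The shares were 6.34% and 10.1% in CLE against HFD, and 4.81% and 7.64% in LU against HFD. The counts by role below can be set beside these shares.

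Among the phospholipases A2, which free arachidonic acid or related fatty acids, 3 of 9 were called higher in HFD than in ND and 3 lower. Pla2g4a, the cytosolic form that prefers arachidonic acid, went from a mean of 2.22 to 5.10 FPKM (log2 fold change 0.93, adjusted p = 0.0001034) and was lower in CLE than in HFD (-0.73, adjusted p = 0.001107). The secreted Pla2g5 (1.31) and the lysosomal Pla2g15 (1.17) were also higher in HFD, and both were called lower in CLE and in LU against HFD. Pla2g5 was low, with means of 0.200 FPKM in ND, 2.07 in HFD, 0.300 in CLE and 0.585 in LU. Outside HFD it reached 1 FPKM only in LU mouse 8, so it passed the filter through the HFD mice. Pla2g4b (-0.78), Pla2g2d (-1.06) and Pla2g12a (-0.76) were lower in HFD, and of these Pla2g2d was called higher in CLE than in HFD (0.61).

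Of the 7 other prostanoid synthases tested, 2 were called higher in HFD and none lower. Tbxas1, thromboxane A synthase, had 3.42, 5.30 and 3.22 FPKM in ND, 46.0, 45.1 and 37.5 in HFD, 9.87, 8.66 and 12.3 in CLE, and 12.96, 8.75 and 13.8 in LU. The HFD mice did not overlap with any other group, and the log2 fold change was 3.16 in HFD against ND (adjusted p = 7.089e-07), -1.97 in CLE against HFD and -1.79 in LU against HFD, all called. Akr1b3, an aldose reductase that also makes prostaglandin F2alpha, was higher in HFD (0.81, adjusted p = 0.0002399) and was not called in CLE or LU against HFD. Ptges2 and Ptges3, the other prostaglandin E synthases, were not called in these comparisons.

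Of 6 prostanoid receptors tested, 3 were called higher in HFD than in ND. These were the prostaglandin E2 receptors Ptger1 (log2 fold change 0.93) and Ptger2 (0.87) and the prostacyclin receptor Ptgir (1.02). Ptger3, the prostaglandin E2 receptor that lowers cyclic AMP in adipocytes, was the only one called lower, from 36.3, 44.8 and 41.1 FPKM in ND to 19.1, 25.5 and 16.9 in HFD (-0.97, adjusted p = 0.0008234). It stood at 42.8, 27.0 and 31.4 FPKM in CLE and at 34.7, 37.3 and 31.1 in LU, above every HFD mouse, and was called higher than in HFD in both (0.69, adjusted p = 0.01137, and 0.73, adjusted p = 0.01045). For breakdown, Hpgd, which inactivates prostaglandins, was lower in HFD (-0.63, adjusted p = 0.02259, from 70.6 to 44.2 FPKM), and Ptgr1, a reductase of prostaglandins and leukotriene B4, was higher (1.14, adjusted p = 0.000937).

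On the leukotriene side, Dpep2, a dipeptidase that turns leukotriene D4 into E4, had 2.03, 2.14 and 2.52 FPKM in ND, 33.9, 29.7 and 31.3 in HFD, 4.33, 5.52 and 9.90 in CLE, and 7.90, 6.46 and 12.9 in LU. No HFD mouse overlapped with another group, and its log2 fold change of 3.34 in HFD against ND (adjusted p = 1.734e-06) was the largest among the pathway genes tested. It was -2.17 in CLE against HFD and -1.75 in LU against HFD, both called. Lta4h, the enzyme of leukotriene B4, was not called in these comparisons. Mgst3, a microsomal glutathione transferase with leukotriene C4 synthase activity, was lower in HFD (-0.81, adjusted p = 8.93e-05) and higher in LU than in HFD (0.59, adjusted p = 0.002402). The only other lipoxygenase tested, Alox12, was lower in HFD (-0.70, adjusted p = 0.03244) at means under 1.5 FPKM. Outside ND it reached 1 FPKM only in LU mouse 8, so it passed the filter through the ND mice. The cysteinyl leukotriene receptor gene Cysltr1 was higher in HFD (0.92, adjusted p = 0.0001222) and lower in CLE than in HFD (-0.69, adjusted p = 0.001636).

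Among 7 genes of platelet-activating factor, 4 were called higher in HFD than in ND and none lower. Its receptor Ptafr had 7.40, 9.74 and 7.92 FPKM in ND, 62.4, 49.3 and 56.6 in HFD, 13.3, 15.6 and 19.6 in CLE, and 22.1, 16.6 and 21.5 in LU. The HFD mice again did not overlap with any other group, at a log2 fold change of 2.61 in HFD against ND (adjusted p = 7.089e-07), -1.75 in CLE against HFD and -1.44 in LU against HFD. The intracellular acetylhydrolase genes Pafah2 (1.10) and Pafah1b3 (0.74) and Lpcat2, which makes platelet-activating factor (0.65), were higher in HFD. All 4 were called lower in CLE than in HFD, and Ptafr and Pafah1b3 also in LU.

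**Figure D5:**
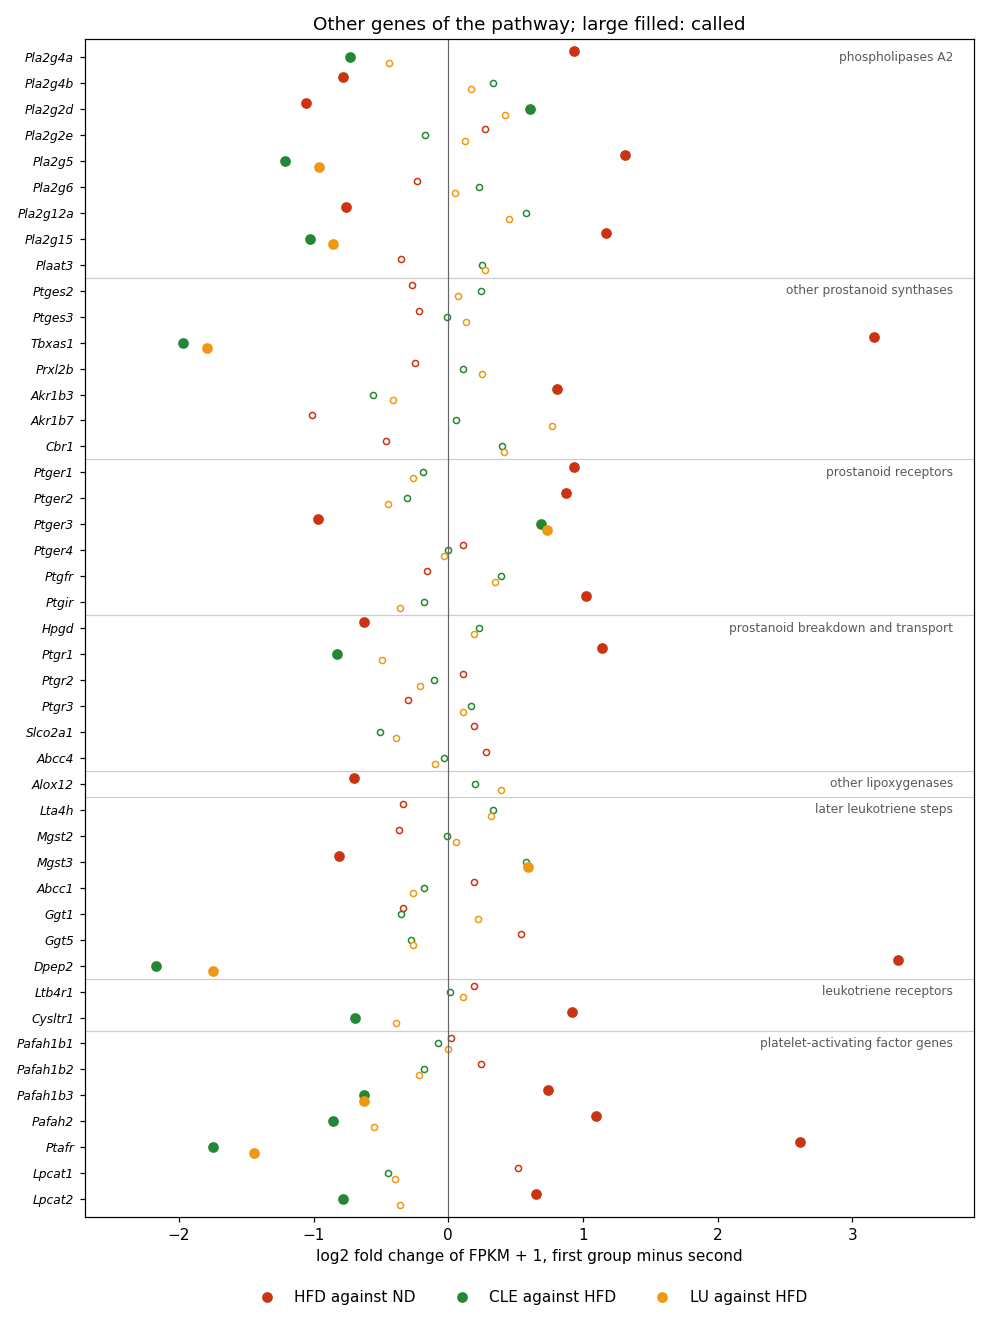
Log2 fold changes of FPKM + 1 for the 45 other genes of the pathway that were tested, grouped by role, in HFD against ND, CLE against HFD and LU against HFD. Large filled points were called, small open points were not. Tbxas1, Dpep2 and Ptafr lie farthest right for HFD, at 3.16, 3.34 and 2.61, and left of 0 for CLE and LU.

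In CLE against ND, 4 of the 45 pathway genes were called, all higher, namely Tbxas1, Ptgir, Dpep2 and Ptafr. Of all genes tested, 2.07% were called higher and 0.854% lower. The pathway calls were 2 without CLE mouse 11 or without ND mouse 2, where 142 and 124 of all 12769 genes were called, against 373. In LU against ND the same 4 were called higher, and Pla2g2d was called lower (-0.64). Of all genes, 4.97% were called higher and 1.62% lower there. The pathway calls were 3 without ND mouse 2, where 661 of all genes were called, against 841. Between CLE and LU none was called, where 0.00783% of all genes were.

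Promoter sequences of RefSeq (GRCm38.p6) were at hand for 8 of the 10 genes, and Alox5ap and Ptgis had no entry. The letters of 6 motifs were searched on both strands of the 250 bases before each start, and matches of different motifs may share bases. The motif GAGGAA of the ETS factor PU.1 was found in 5 of the 8 and in 23.3% of 32851 mouse promoters of the same length. The C/EBP motif TTNNGNAA was found in 4 of the 8, Hpgds among them, and in 36.8% of all promoters, and the AP-1 motif TGANTCA in 1, that of Ptgds, and in 6.75%. The kappaB core GGGANTTTC (0.941% of all promoters), the TATA box TATAAA (12.4%) and the E-box CACGTG (6.02%) were found in 0 of the 8. The GAGGAA matches, the most frequent among the 8, are shown so that Hpgds can be set beside genes without a call. They are printed along the strand of the gene with up to 12 bases on each side, the match in capitals, which read as the reverse complement for Ptges.
Hpgds, chr6:65144762-65144791: ggcttttaggtgGAGGAAgtggcctctggc
Ptgs1, chr2:36230390-36230419: aaggctggagcaGAGGAAgttggcggtcag
Ptgs2, chr1:150099781-150099801: tggGAGGAAaccggagacccc
Ptges, chr2:30903429-30903458: gggacacctccaTTCCTCtgcttcccaccc
Alox5, chr6:116461297-116461326: agagatggggcaGAGGAAcaagggcttcag
The Hpgds match lies in an exon of a longer GENCODE transcript and that of Ptges in an intron of one, and the other 3 lie outside the genes. Of the genes called higher in HFD that had an entry, Hpgds held a match and Pla2g7 held none, and the other 4 matches were in genes without a call. A match is a description of the letters in the window and not of a bound site.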

How the data were processed

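Whole eWAT of 12 mice was measured by paired-end mRNA-seq (100 bases). The authors deposited FPKM per transcript for 152210 annotated and assembled transcripts. The submitters' processing notes name CASAVA 1.8.2, TopHat2 2.0.12, Bowtie2 2.2.3 and Cufflinks 2.2.1, and the genome build is not given in the sources used here. Columns with the authors' own calls between groups were not used, nor were 3 of the 15 FPKM columns, which match no sample. A column headed MD4 was taken as that of ND mouse 4, an inference from its number, its letter R and the header of a comparison that lists it with the ND columns.

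Transcripts with an Ensembl identifier, plain or with class code = (same as the annotation) or j (altered splicing), were assigned by identifier to GENCODE M21 genes (GRCm38). Of 78786 known transcripts 76916 were found, 87.6% with the same start and end. FPKM were summed per gene. The authors' test (DEGseq on read counts) was not repeated, since the table holds FPKM and no read counts were recovered from it. The deposited FPKM were therefore tested as log2(FPKM + 1) with limma 3.58.1 in R 4.3.3, with empirical Bayes moderation without trend, no covariate and all 12 libraries in 1 fit. P-values rest on the spread among the 3 mice within each group, pooled over the 4 groups and moderated over all genes. They do not measure the spread of the compared groups alone. An exact two-sided permutation test of 3 against 3 cannot go below 0.1. The method was tested on simulated data. Tables and plots used Python 3.11.15, pandas 2.3.3, numpy 2.4.6 and matplotlib 3.10.9.

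The genes and lists were chosen with earlier results of these data known. Named genes are the 10 genes, pathway genes called in any comparison with HFD, defining markers, and for each gene the 3 genes most like it. The genes Ptges2, Ptges3 and Lta4h were named, and the ratios to single macrophage markers and to their sum without Lyz2 added, after the values were seen. Alternatives were another pseudocount (0.1), other filters, 3 scalings, fits of only the groups compared, a trend, weights per library, a covariate for the letter R or leaving those libraries out, the adjusted p alone, class code j left out, the highest transcript, a replicate block, the deposited gene names (chosen after seeing the data) and leaving out each library.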

Additional observations from a re-analysis of the deposited data

How the results depend on the processing

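The calls of Hpgds, Alox5ap and Pla2g7 in HFD against ND and in CLE against HFD held in every alternative that gave a value. Without class code j, Alox5ap could not be tested. No scaling moved the median of all genes by over 0.1. The depth is unknown, and 3 mice per group limit the precision.

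The 10 genes had 3 calls in CLE against ND, where 373 of all 12769 genes were called. They had 0 without class code j (224 of 12077 genes), with only the groups compared (0 of 12769) and with the highest transcript (207 of 12067). With the replicate block they also had 0, where 2 of 12769 genes were called. With 1 library left out they had 0 to 3, and 0 without CLE mouse 11 (142 of all genes) or ND mouse 2 (124). In LU against ND there were 3 calls, where 841 of all genes were called. With the highest transcript there was 1 (732 of 12067 genes), and with 1 library left out there were 3 to 5 (572 to 964 of all genes). With the adjusted p alone, HFD against ND had 5 calls among the 10 genes, where 6443 of all 12769 genes were called. The pathway list had 20 in CLE against HFD and 18 in LU against HFD (13 and 8 with the fold change). Of all genes, 4296 and 3426 were called in these comparisons by the adjusted p alone. At a mean FPKM of at least 5, the pathway list had 7 calls in CLE against HFD and 12 in HFD against ND, against 22. That filter left 9296 genes, of which 1450 and 2243 were called in these comparisons. With the highest transcript the pathway list had 5 in LU against HFD, where 1453 of 12067 genes were called. In CLE against ND it had 4 calls, and 0 with only the groups compared and with the replicate block. Of all 12769 genes, 373, 0 and 2 were called in these fits. It had 2 calls without CLE mouse 11 or without ND mouse 2, where 142 and 124 of all genes were called. In LU against ND it had 5 calls (841 of all genes), and 2 with the replicate block (409). With 1 library left out it had 3 to 6 (572 to 964 of all genes), and 3 without ND mouse 2 (661).

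The numbers in the labels are mouse numbers within a group. Same-numbered mice did not deviate together, with correlations of deviations from the group means between -0.10 and 0.19 in 5 pairs, and HFD shares no number with another group. Under the replicate block the log2 fold changes in CLE against ND were 0.73 for Hpgds, 0.58 for Alox5ap and 0.92 for Pla2g7, with adjusted p of 0.1495, 0.2035 and 0.1549.

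The call of Alox5ap in CLE against ND turned to -0.59 with the highest transcript, and some differences without a call changed sign. The cause was not tested. Without class code j, values were -0.02 for Alox5 (CLE against ND), 0.52 for Hpgds (CLE against LU), -0.31 for Ptgis (CLE against HFD) and -0.0016 for Ptgs1 (CLE against LU). With the highest transcript they were 0.30 for Hpgds (CLE against LU), -0.14 for Ptges (LU against HFD) and -0.04 for Ptgis (CLE against HFD). The replicate block gave 0.06 for Hpgds and -0.14 for Ptgs1 in CLE against LU. Without the letter R, Alox5 was 0.0064 in CLE against LU, -0.06 in CLE against ND and -0.07 in LU against ND, Ptges 0.19 in CLE against ND and Ptgs1 -0.04 in LU against ND. Ptges in LU against HFD was -0.04 with the letter as a covariate and -0.0036 with median ratios, and Ltc4s in CLE against HFD was -0.03 with array weights. With 1 library left out, the ranges that crossed 0 were -0.29 to 0.05 for Alox5, -0.21 to 0.14 for Hpgds, -0.26 to 0.03 for Ptgis and -0.05 to 0.15 for Ptgs1 in CLE against LU. In CLE against HFD they were -0.06 to 0.13 for Ltc4s and -0.03 to 0.20 for Ptgis. Against ND they were -0.03 to 0.11 for Alox5 in CLE, -0.03 to 0.32 for Alox5 in LU and -0.07 to 0.13 for Ptgs1 in LU.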

Other observations

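The genes whose FPKM varied most like each of the 8 genes were listed by Pearson's r on log2(FPKM + 1) over the 12 libraries, as a description without a p. The libraries share the 4 diet groups, so r reflects the group differences as well as the mice. For Hpgds the 3 highest were Siglec1 (a sialic acid receptor of macrophages), Rnf180 and Pi4k2a, each at r = 0.99. For Alox5ap they were Lyz2 (lysozyme), Selplg and Ptprc (the leukocyte antigen CD45), each at 0.99. For Pla2g7 they were Ptpn6 (0.99), Mpeg1 (perforin-2 of macrophages, 0.99) and Ctss (cathepsin S, 0.98). After the group means were removed, r was between 0.70 and 0.90 for these 9 genes.

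The other 5 genes had other nearest genes. Ptges varied most like Gapdh (0.92), the glycolytic enzyme, then Tbc1d4 (0.92), which acts in insulin-stimulated glucose uptake, and U2surp (0.90). The nearest gene was L1cam for Ptgs1 (0.94), Stk26 for Ptgis (0.91), Tmem178b for Alox5 (0.88) and Cltb for Ltc4s (0.89). After the group means were removed, r was 0.92 for Gapdh, 0.95 for L1cam, 0.86 for Stk26, 0.90 for Tmem178b and 0.79 for Cltb. All of these genes were picked for a high r over the same 12 libraries, which the r within groups does not allow for.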
